A study of Mus musculus with 4 samples.

Results

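Antigen recognition through the T cell receptor switches on a short-lived set of genes, and 160 T cells of the tumour-draining lymph nodes of melanoma-bearing mice, called early-gene T cells here, carried at least 3 of 5 such genes. The 5 genes were Nr4a1, Egr2, Egr3, Nfkbid and Hivep3. T cells were barcodes that had 300 or more genes, no more than 10% mitochondrial UMIs (unique molecular identifiers, the counts of captured RNA molecules) and a UMI of Cd3e, a chain of the receptor complex. They held no UMI of Cd79a (B cells), Foxp3 (regulatory T cells), Trdc (gamma-delta T cells) or Mki67 (dividing cells). Of 30824 barcodes in all, 26096 passed the quality limits and 10943 were T cells by this gate. The early-gene T cells were set against the 8948 T cells with none of the 5 genes, called negative T cells. Because the members were chosen on measured values of the 5 genes, those values describe the choice and were not tested. Receptor signalling itself was not measured.

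When a receptor meets its peptide on a presenting cell, calcium, MAP kinase and protein kinase C signals act through NFAT, AP-1 and NF-kB transcription factors. Genes such as Nr4a1 and the Egr family follow within the first hours, together with the surface protein Cd69, which holds T cells in the node by removing the exit receptor S1pr1. Feedback genes that damp the signal rise in the same period, while genes of the resting, recirculating state are turned down. The same early genes can also be induced by cytokines, by other receptors and by handling of the tissue.

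The nodes came from a study of inhibitors of BTK and of the IDO pathway in mice with B16F10 tumours, a transplantable melanoma. The treated group held 2 C57BL/6J mice with tumours that were given indoximod, an IDO pathway inhibitor, at 2 mg/ml in drinking water and ibrutinib, a BTK inhibitor, at 350 µg daily, both from day 9. These mice received the alkylating drug cyclophosphamide at 150 mg/kg on day 10. The control group held 2 C57BL/6J mice with tumours and no treatment, and inguinal nodes were taken from every mouse 48 hours after the cyclophosphamide dose. Nodes were disaggregated mechanically and single cells were profiled by droplet capture of the 3' ends of transcripts. The barcodes carry library numbers 1 to 4, which are not tied to a mouse or a group, so treated and control mice are not compared here and no library is averaged with another as a replicate.

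The 4 libraries held 7002, 6978, 7013 and 9831 barcodes and 39589629, 39733183, 40339336 and 53643414 UMIs, always given in the order of libraries 1 to 4. Early-gene and negative T cells had medians of 6286 and 6276.5 UMIs per cell, 1902 and 1734.5 genes per cell, and 4.31% and 4.66% mitochondrial UMIs. Their spread of depth differed: 21.9% of early-gene cells and 7.85% of negative cells had over 10000 UMIs. Among CD8 cells the medians were 8196.5 UMIs in early-gene and 7016 UMIs in negative cells, and 10757.5 and 7382 UMIs in library 1. A doublet caller marked 1 early-gene T cell, a CD4 cell, and 96 T cells in all. Of the barcode sequences, 86 occurred in a pair of libraries, and 1 of these was an early-gene T cell. B cells, which carry no T cell receptor but respond to their own antigen receptor with some of the same genes, gave a background for the choice: 85 of 9279 (0.916%) held at least 3 of the 5 genes, at a median of 3863 UMIs. Egr3 was found in 3.99% of T cells and 10.5% of B cells, and Nfkbid in 9.81% and 8.45%. Nr4a1 was found in 2.23% of T cells and 2.80% of B cells, Egr2 in 2.07% and 0.754%, and Hivep3 in 6.31% and 4.46%. A UMI of Nr4a1, Egr3 or Nfkbid alone was thus about as common in B cells as in T cells or more so, and at that level free RNA in the droplets and expression cannot be told apart.

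The 5 genes encode nuclear proteins. Nr4a1 is an orphan nuclear receptor (Nur77) whose level is known to follow the strength of the receptor signal, Egr2 and Egr3 are zinc-finger factors that restrain activated T cells, Nfkbid is a nuclear member of the IkB family that modifies NF-kB activity, and Hivep3 is a large zinc-finger protein. In the mm10 build (GENCODE vM21) Nr4a1 lies on chromosome 15 from 101254269 to 101274795, Egr2 on chromosome 10 from 67535475 to 67542188 and Egr3 on chromosome 14 from 70077203 to 70082614. Nfkbid lies on chromosome 7 from 30421732 to 30428746 and Hivep3 on chromosome 4 from 119733784 to 120138045. All 5 are on the plus strand, and they sit on 5 different chromosomes. The table of RefSeq promoters (GRCm38.p6), which spans 250 bases before to 50 bases after each start, held 4 of the 5 genes in 10 windows of 300 bases. Each window was searched on both strands for the cAMP response element TGACGTCA, the AP-1 site TGANTCA and the EGR site GCGTGGGCG, which do not overlap in these windows. One window, chr7:30422156-30422455 on the plus strand, is shown because it is the only one of the 10 with a match to any of these motifs. It belongs to Nfkbid, and capitals mark the cAMP response element, which begins at position -51 from the start site:
Nfkbid: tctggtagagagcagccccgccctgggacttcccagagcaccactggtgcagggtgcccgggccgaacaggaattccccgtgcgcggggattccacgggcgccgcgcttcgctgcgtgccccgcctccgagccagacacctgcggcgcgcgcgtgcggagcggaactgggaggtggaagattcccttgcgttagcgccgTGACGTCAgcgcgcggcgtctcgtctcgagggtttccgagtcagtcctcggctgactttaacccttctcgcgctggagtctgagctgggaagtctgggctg
This element stood in 1.79% of the 32851 promoters of the table, the AP-1 site in 7.81% and the EGR site in 0.612%. The short NFAT core GGAAA and the CArG outline were also searched, but they stood in 61.3% and 73.3% of all promoters and are not marked.

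Most early-gene T cells owed their place to Egr3 and Nfkbid. Egr3 had a UMI in 142 of the 160 cells (88.8%), Nfkbid in 139 (86.9%), Nr4a1 in 111 (69.4%), Egr2 in 96 (60%) and Hivep3 in 65 (40.6%). Exactly 3 of the genes were found in 98 cells, 4 in 51 cells and all 5 in 11 cells. Nr4a1, Egr2, Egr3 and Nfkbid without Hivep3 was the most frequent of the 16 combinations, with 32 cells (20%), followed by Nr4a1, Egr3 and Nfkbid with 29 cells and Egr2, Egr3 and Nfkbid with 22 cells. Levels are given as counts per 1000000 UMIs of the pooled cells (CPM); this assay counts transcript ends, so a level does not depend on transcript length. Egr3 had 418, 356, 445 and 426 CPM in the early-gene T cells of libraries 1 to 4, and Nfkbid 236, 227, 425 and 344 CPM. Nr4a1 had 322, 206, 269 and 287 CPM, Egr2 136, 156, 123 and 155 CPM, and Hivep3 179, 141, 110 and 139 CPM. Each gene was present in every library within a range of less than 2-fold. Within CD4 early-gene cells Nr4a1 was higher in libraries 1 and 2, at 536 and 350 CPM, than in libraries 3 and 4, at 184 and 206 CPM. CD8 early-gene cells had the opposite order of Nr4a1, 153 and 113 CPM in libraries 1 and 2 and 403 and 352 CPM in libraries 3 and 4. Their median depths were 10757.5, 9605, 7182 and 8108 UMIs, and those of CD4 early-gene cells 5920, 6133, 5748 and 7228 UMIs. Nr4a1 is a gene of the choice, and the part of depth in its order was not tested.

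Early-gene T cells made up a small and similar share of T cells in every library. There were 35, 40, 41 and 44 of them, or 1.48%, 1.66%, 1.45% and 1.32% of T cells. The share over all libraries was 1.46% (exact Clopper-Pearson 95% interval 1.25% to 1.70%); intervals here and below cover counting error only. CD4 T cells, with Cd4 and no Cd8b1, held 47 early-gene cells of 2461, a share of 1.91% (1.41% to 2.53%). CD8 T cells, with Cd8b1 and no Cd4, held 66 of 5728, a share of 1.15% (0.892% to 1.46%). These intervals overlap. By library the CD4 shares were 2.39%, 1.55%, 2.32% and 1.40% from 14, 8, 15 and 10 cells, and the CD8 shares 1.15%, 1.61%, 1.07% and 0.881% from 14, 21, 16 and 15 cells. CD4 exceeded CD8 in libraries 1, 3 and 4 and was below it in library 2. T cells with neither coreceptor detected held 39 early-gene cells of 2342 (1.67%), and those with both held 8 of 412 (1.94%), 6 of the 8 in library 4. Early-gene cells were thus 29.4% CD4 and 41.3% CD8, against 22.3% CD4 and 52.5% CD8 among negative T cells. Depth differed between the subsets, at medians of 6150 UMIs in CD4 and 8196.5 UMIs in CD8 early-gene cells. When every cell was thinned to 2000 UMIs, 36 of 10892 T cells (0.331%) still met the rule, 17 of 2451 CD4 cells (0.694%, 0.405% to 1.11%) and 7 of 5722 CD8 cells (0.122%, 0.0492% to 0.252%). At equal depth the CD4 and CD8 intervals over all libraries together did not overlap, and 51 T cells were too shallow to be thinned. The libraries gave 7, 2, 6 and 2 thinned CD4 cells and 1, 0, 2 and 4 thinned CD8 cells that met the rule. Within libraries 2, 3 and 4 the intervals overlapped, and in library 4 the shares were 0.281% and 0.235%.

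**Figure D1:**
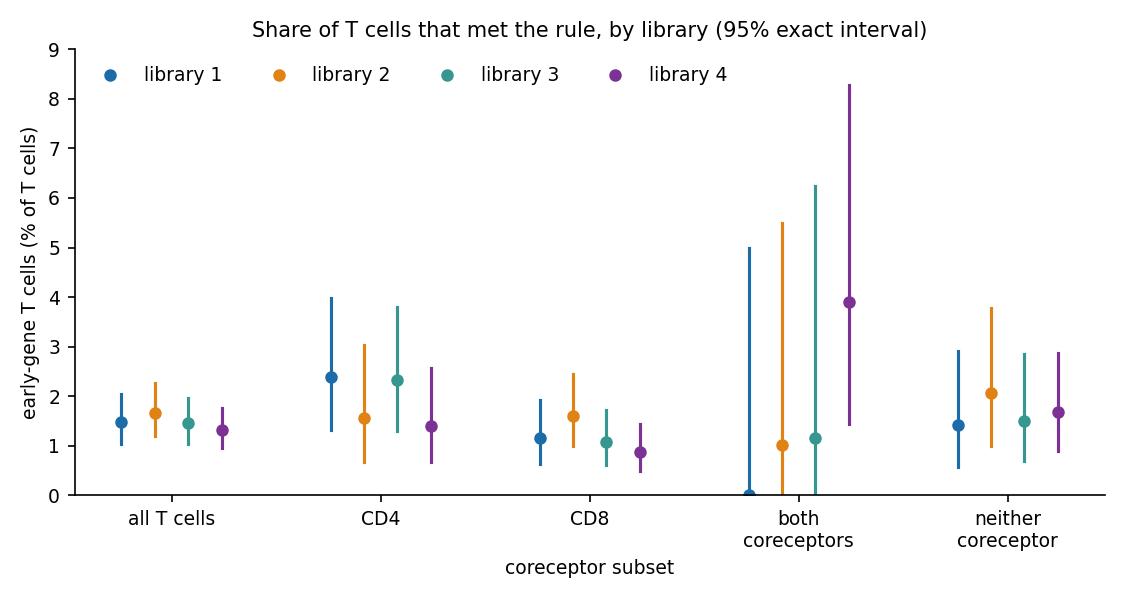
Share of early-gene T cells (percent of T cells, y axis) in libraries 1 to 4 for all T cells and by coreceptor subset, with exact 95% binomial intervals for counting error. All T cells lie between 1.32% and 1.66% in every library, and the intervals of CD4 and CD8 cells are wide because each rests on 8 to 21 cells.

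The early-gene T cells differed from negative T cells far beyond the genes that chose them. For this comparison the negative T cells were weighted to the same library and the same coreceptor subset as the early-gene cells. A gene was tested in a library when the smaller class had, or would have had at equal CPM, at least 10 counts. It was called higher or lower when 3 or more libraries could be tested and the CPM ratio reached 1.5-fold, one way, in all of them. This is a rule of size and not a significance test, since cells of a library are not replicates and the libraries are of unknown group. A gene very low in negative cells could be tested only through a high count in early-gene cells, and could then only be called higher. The 5 chosen genes, the gate genes and the coreceptors Cd4 and Cd8b1 were left out. The calls over all genes were as follows. Of 3606 genes tested, 247 (6.85%) were higher and 31 (0.86%) lower in early-gene T cells, and the median log2 ratio of all tested genes was 0.14. With trimmed-mean (TMM) scaling, which moved that median to -0.09, 146 genes were higher and 84 lower. This scaling lowered the ratios in every library, so the 146 had to be among the 247. For the same reason lower calls were favoured, and 30 of the 31 were also lower with TMM scaling.

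Transcription factors of the early response were among the genes with the largest ratios. On a list of 12 receptor-induced early genes other than the chosen 5, 9 could be tested, 8 were higher and none was lower; their median log2 ratio was 2.70. The 8 were Cd69, Egr1, Nr4a3, Irf4, Myc, Batf, Nfatc1 and Nab2, and 7 of these 9 were higher with TMM scaling. Egr1, a zinc-finger factor of the same family as Egr2 and Egr3, had 468, 482, 561 and 530 CPM in early-gene T cells and 13.7, 14.6, 16.7 and 12.3 CPM in negative T cells. The log2 ratio over all libraries was 5.15 (5.0 to 5.30, a 95% interval for counting error), and the early-gene value stood far above the negative value in every library. Egr1 was found in 78.8% of early-gene cells and 5.8% of negative cells. Nr4a3, the nuclear receptor next of kin to Nr4a1, had 116, 82.9, 86.3 and 63.1 CPM against 1.05, 1.38, 1.87 and 2.03 CPM, a log2 ratio of 5.78 (5.37 to 6.19). Irf4, which scales effector programmes to receptor signal strength, had 73, 92.1, 69.7 and 31.6 CPM, lowest in library 4, against 2.46, 1.22, 1.28 and 2.55 CPM, a log2 ratio of 5.15. These 3 genes were so low in negative cells that they could be tested only through high counts in early-gene cells. Their calls as higher thus followed from the filter, and the 8 higher genes of the list include them. The sizes of the gaps are what is described. Myc, the driver of growth after activation, had 133, 175, 169 and 215 CPM in early-gene cells and 24.6, 24.1, 27.3 and 28.4 CPM in negative cells, a log2 ratio of 2.73, and was found in 47.5% and 14.5% of cells. Id3, an inhibitor of E proteins that Egr factors induce, had 438, 552, 717 and 505 CPM against 73.6, 74.2, 78.7 and 83.4 CPM, a log2 ratio of 2.83.

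The surface marker Cd69 was not a gene of the rule that picked early-gene cells. The cells and gene lists were chosen with earlier results of these data known, so Cd69 is not an independent check of the choice. Cd69 was found in 147 of the 160 early-gene cells (91.9%), against 40.0% of negative T cells and 37.2% of B cells. Its level was 637, 638, 1477 and 1483 CPM in early-gene T cells and 108, 107, 135 and 124 CPM in negative T cells, a log2 ratio of 3.16 (3.07 to 3.24). Among early-gene cells, libraries 3 and 4 were well above libraries 1 and 2, and all 4 stood far above every negative value. Cd69 lies on chromosome 6 from 129267325 to 129275436 on the minus strand. A UMI of Cd69 in a T cell was thus common without the early genes, but its level set the classes apart.

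NF-kB genes were higher almost as a block. Of 17 family members and targets, 15 were tested, 12 were higher and none lower, with a median log2 ratio of 1.91, and 12 were still higher with TMM scaling. Rel, the NF-kB subunit that lymphocyte activation induces, had a log2 ratio of 2.58, Nfkb1 of 1.47 and the adhesion molecule Icam1 of 2.22. Bcl2a1b, a survival gene of the Bcl2 family, had 239, 301, 372 and 259 CPM in early-gene cells and 21.9, 24.7, 24.6 and 32.6 CPM in negative cells, a log2 ratio of 3.49. Bcl2a1b has near-identical copies, such as Bcl2a1d with a log2 ratio of 3.14, and reads may be shared between them. Inhibitors of the pathway were higher along with its activators: Nfkbia had a log2 ratio of 2.17, Tnfaip3 (A20) of 2.75 and Nfkbiz of 2.26. Tagap, a GTPase-activating protein of activated T cells, had 206, 147, 272 and 230 CPM against 15.6, 17.5, 11.4 and 12.8 CPM, a log2 ratio of 3.89, and was found in 65% of early-gene cells.

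Feedback genes on receptor signalling were higher in part. Of 23 on the list 14 were tested, and Cd5, Dusp2, Dusp5, Dusp6, Sla and Zc3h12a were higher, with none lower and a list median of 0.65 against 0.14 for all genes. Dusp2, a nuclear phosphatase of MAP kinases, was found in 97.5% of early-gene cells and 49.9% of negative cells, at 670, 592, 876 and 748 CPM against 144, 150, 128 and 130 CPM, a log2 ratio of 2.38. Cd5, a surface inhibitor whose level in resting cells is set by self-recognition, had 242, 270, 279 and 275 CPM against 107, 96.9, 111 and 113 CPM, a log2 ratio of 1.32. The early-gene values of Cd5 were close to one another and, as its call requires within each tested library, above the negative ones. The receptor chains and proximal kinases themselves hardly differed: of 21 genes of the receptor and its signalling 20 were tested and 1 was higher, Lcp2 (the adaptor SLP-76, log2 ratio 1.25), and the list median of 0.14 equalled that of all genes. Trac had a log2 ratio of 0.45, Cd3g of 0.15 and Cd3d of 0.09, none of them called. On the list of anergy genes, which Egr2 and Egr3 are known to serve, 5 of 8 were tested and none was called, at a median of 0.13.

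Genes by which T cells speak to other cells were higher as well. Of 14 costimulatory receptors and TNF family ligands 9 were tested and Icos, Tnfrsf4, Cd40lg, Tnfsf8 and Cd200 were higher, at a list median of 1.09; among cells of 5000 to 10000 UMIs only, 2 of 6 tested were higher. Icos, a costimulatory receptor of helper cells, had 163, 114, 92.9 and 139 CPM in early-gene cells and 38.3, 35.6, 32.9 and 37.2 CPM in negative cells, a log2 ratio of 1.82. Tnfrsf4 (OX40) had 192, 64.4, 199 and 15.8 CPM against 9.74, 10.5, 12.6 and 14.9 CPM, a log2 ratio of 3.27 overall. In library 4 Tnfrsf4 was near the negative level, with a log2 ratio of 0.08, and the call rests on the other 3 libraries. Of 16 cytokines and chemokines 6 were tested and Tnf, Lta, Tgfb1 and Xcl1 were higher. Tnf and Xcl1, like Tnfrsf4, could be tested only through high counts in early-gene cells, so they could only be called higher. Tnf, the inflammatory cytokine, was found in 41.2% of early-gene cells and 4.4% of negative cells, at 73, 76.7, 86.3 and 97.8 CPM against 6.65, 5.14, 8.37 and 10.1 CPM, a log2 ratio of 3.47. Lta, its neighbour in function and in the genome, had a log2 ratio of 2.69. The hallmark cytokines of fully activated effector cells were found in few cells: Ifng in 5 early-gene cells (3.12%, against 0.156% of negative cells) and Il2 in 3 (1.88%, against 0.682%), too few to be tested. Of the inhibitory receptors, Cd160 and Btla were higher, with log2 ratios of 2.18 and 1.03. Pdcd1 (PD-1) was found in 20 early-gene cells (12.5%, against 1.0% of negative cells), as was the costimulatory receptor Tnfrsf9 (12.5%, against 2.2%), and Lag3 in 9; none of these had enough counts to be tested.

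Growth genes were higher too. Of 20 genes of MYC and ribosome biogenesis 19 were tested and 11 were higher, at a median of 0.98, with none lower and 9 higher under TMM scaling. Srm, the spermidine synthase that MYC induces, had a log2 ratio of 1.70, Nolc1 of 1.49 and nucleolin (Ncl) of 1.18. The deepest cells weighed on this group: 35 early-gene cells above 10000 UMIs gave 38.9% of the UMIs of the class, against 14.8% from the 702 negative cells of that depth. Among cells of 5000 to 10000 UMIs 6 of 15 tested genes were higher. Ncl had 1710 CPM in the early-gene cells above 10000 UMIs, 807 CPM in those of 5000 to 10000 and 804 CPM in those below 5000. Of 16 genes of amino acid transport and stress 4 of 8 tested were higher, at a median of 0.78, and 2 of 9 tested with TMM scaling. Glycolysis had 1 of 10 tested genes higher, at a median of 0.29. Cells with an Mki67 UMI were removed by the gate, and the cell cycle list had 1 of 8 tested genes higher. Dividing cells without an Mki67 UMI could remain: Top2a was found in 6.88% of early-gene and 2.58% of negative cells, and Pcna in 37.5% and 16.6%.

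Some genes of the resting, recirculating T cell were lower. All 14 genes of the naive state and homing were tested, none was higher, and S1pr1, Klf2 and Ccr7 were lower, at a list median of -0.62; with TMM scaling 5 were lower. S1pr1, the receptor by which T cells leave the node, had 92.9, 129, 59.7 and 66.3 CPM in early-gene cells and 312, 313, 334 and 333 CPM in negative cells, a log2 ratio of -1.88 (-2.17 to -1.61), and was found in 35% and 79.3% of cells. Klf2, the factor that maintains S1pr1 expression, had 242, 245, 266 and 249 CPM against 533, 568, 594 and 582 CPM, a log2 ratio of -1.18. Ccr7, the receptor that brings T cells into the node, had 82.9, 132, 89.6 and 126 CPM against 217, 220, 254 and 247 CPM, a log2 ratio of -1.11. The call of these 3 genes already requires a gap between the classes within each tested library. The interleukin-7 receptor Il7r was not called at -0.73, nor were Lef1 at -0.62 and Tcf7 at -0.37. Outside the list, Txnip, a brake on glucose uptake, had 49.8, 120, 66.4 and 60 CPM against 246, 247, 225 and 228 CPM, a log2 ratio of -1.66. Pik3ip1, an inhibitor of PI3 kinase, had a log2 ratio of -1.56, and Tsc22d3 (GILZ), a glucocorticoid-induced gene, of -1.44.

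**Figure D2:**
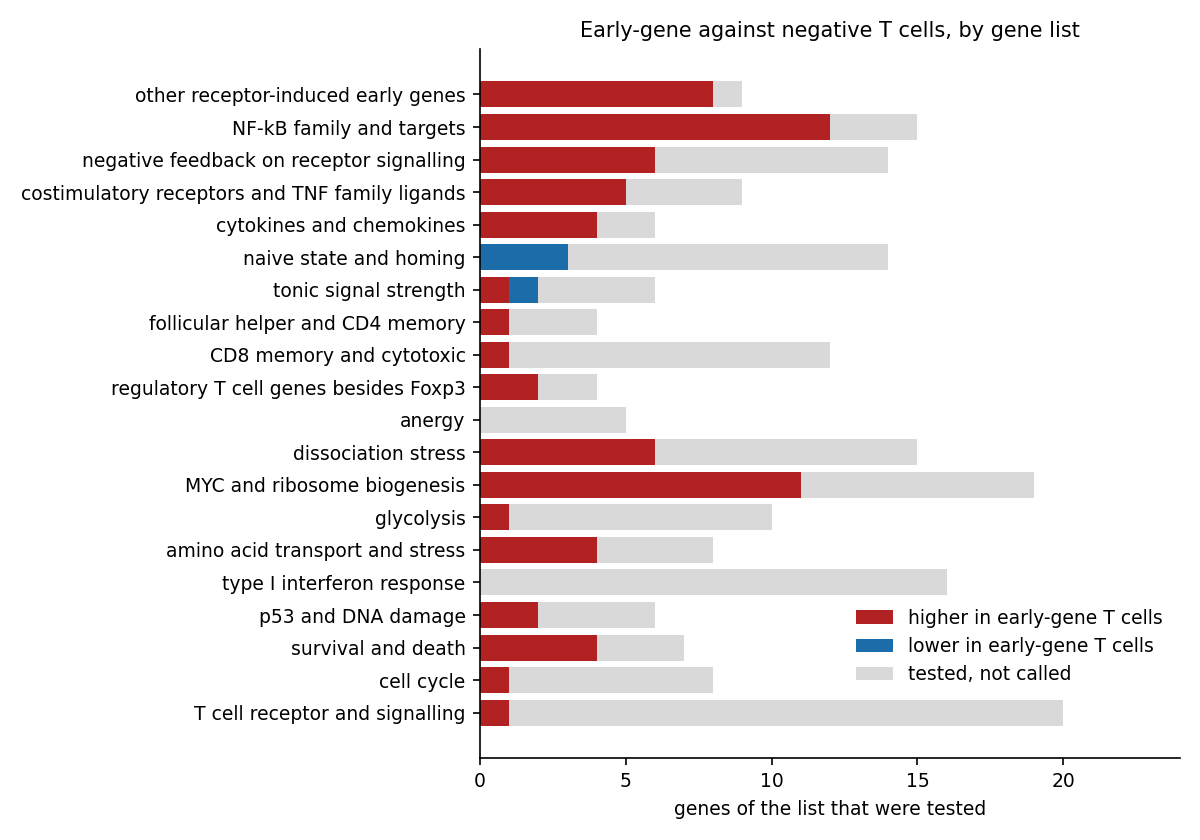
Genes tested in each list (x axis, number of genes; lists down the page) in early-gene T cells against negative T cells of the same library and coreceptor subset, split into higher, lower and not called by the 1.5-fold rule. Lists with at least 4 tested genes are shown. Of these, 8 of 9 early genes and 12 of 15 NF-kB genes were higher, and 3 of 14 genes of the naive state were lower. Genes very low in negative cells could be tested only through high early-gene counts, and could then only be higher.

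The remaining lists were mixed. The type I interferon response had 16 tested genes of 21 and no call in either direction, at a median of -0.07, and its member Isg15 had a log2 ratio of 0.78. The CD8 memory and cytotoxic list had 1 of 12 tested genes higher, at a median of -0.24, and the follicular helper list 1 of 4. Of 6 genes linked to tonic signal strength Cd5 was higher and Ly6c1, at -1.75, lower. Of 6 tested p53 and DNA damage genes 2 were higher, 1 of them Gadd45b (log2 ratio 2.74), which NF-kB also induces. Of 7 tested survival genes 4 were higher, Bcl2a1b among them. Regulatory T cell genes besides Foxp3 were higher in 2 of 4 tested cases, Tnfrsf4 and Ikzf2. Ikzf2 (Helios) was found in 27 early-gene cells and had a log2 ratio of 1.75 overall but -0.94 in library 4, and 1 cell gave 37% of its early-gene UMIs. Without any T cell that held an Ikzf2 UMI, 209 genes were higher and 24 lower, but these were not all the same genes. Of the 247 higher before, 174 could still be tested and 158 stayed higher. Of the 31 lower before, 19 could still be tested and 16 stayed lower.

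Genes known to respond to tissue handling moved with the early-gene class. Of 21 dissociation stress genes 15 were tested and Fos, Junb, Ier2, Zfp36, Hsp90aa1 and Hspd1 were higher, with none lower and a median of 0.73. The summed level of the list was 6987 to 7899 CPM by library in early-gene T cells and 3976 to 4311 CPM in negative T cells. Several of these genes are themselves induced through the T cell receptor, and their part in the results above was not tested. Fos had a log2 ratio of 2.90, Ier2 of 2.16 and Junb of 1.79, while Jun was not called at 0.37. The inducible heat shock genes Hspa1a and Hspa1b, which respond to handling in many tissues, had no UMI in any of the 160 early-gene cells, which allows a share of up to 1.88%. They were found in 0.0559% and 0.168% of negative cells, so a difference between the classes was not detectable at this number of cells. Markers of other cells were counted beside these. The 4 NK cell markers were at 0, gamma-delta markers summed to 0 to 18.9 CPM in early-gene cells and 3.0 to 5.9 CPM in negative cells, and B cell markers to 342 to 432 CPM and 458 to 609 CPM. The B cell sum in early-gene cells was thus of the order of Egr3, a gene of the choice, and Cd79b had a UMI in 11.2% of early-gene and 13.1% of negative cells. The part of these markers in the results was not tested. Of the B cell list 3 of 6 tested genes, all of MHC class II, were lower in early-gene cells. Of the myeloid and dendritic cell list 1 gene could be tested and it was not called. Haemoglobin and other red cell genes summed to 26.6 to 203 CPM against 12.1 to 1844 CPM, and melanoma genes to 0 to 3.32 CPM against 0.595 to 30.1 CPM.

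To see whether the pattern held within each lineage, CD4 and CD8 early-gene cells were compared with negative cells of the same lineage. In CD4 cells, 120 of 1119 tested genes (10.7%) were higher and 17 (1.52%) lower, at a median log2 ratio of 0.19. With TMM scaling 42 were higher and 93 lower, so the balance of directions in CD4 cells depends on scaling. The 42 had to be among the 120, since this scaling lowered the ratios in every library. Both tested early genes, all 5 tested NF-kB genes and 3 of 4 tested feedback genes were higher, and 5 of the 11 tested genes of the naive state and homing were lower, at a list median of -1.32. With TMM scaling 4 of 5 NF-kB genes and 1 of 4 feedback genes were higher and 6 naive state genes lower. Of 11 tested dissociation stress genes 5 were higher, and 3 with TMM scaling. Egr1 had 666, 763, 302 and 363 CPM in CD4 early-gene cells and 16.3, 22.3, 13.8 and 13.7 CPM in CD4 negative cells, a log2 ratio of 4.98. Cd69 had 839, 541, 1206 and 1211 CPM against 116, 114, 137 and 113 CPM, a log2 ratio of 3.02. Early-gene values exceeded negative ones in every library for both genes, as their calls require. CD40 ligand (Cd40lg), which helper T cells use to license B cells and dendritic cells, had 259, 127, 226 and 303 CPM against 86.9, 65.2, 82.6 and 66.8 CPM, a log2 ratio of 1.61. Cd200, a ligand that restrains myeloid cells, had 363, 175, 159 and 109 CPM against 29.4, 23.5, 12.4 and 19.5 CPM, a log2 ratio of 3.34. Tnfrsf4 had 415, 254, 369 and 24.2 CPM against 14.5, 17, 11.8 and 27.6 CPM; libraries 1 to 3 were far above the negative level and library 4 was not. Tnf was found in 53.2% of CD4 early-gene cells and 4.7% of CD4 negative cells.

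S1pr1 had the lowest ratio of the called genes in CD4 cells, with 43.2, 159, 33.5 and 48.4 CPM in early-gene cells, against 346, 364, 378 and 367 CPM in negative cells, a log2 ratio of -2.59. Ccr7 had 43.2, 127, 109 and 60.5 CPM against 223, 252, 287 and 285 CPM, a log2 ratio of -1.68, and Klf2 had 130, 270, 285 and 96.8 CPM against 498, 496, 590 and 562 CPM, a log2 ratio of -1.48. These 3 genes of entry to and exit from the node were thus lower in every library, as their calls require. Arl4c, a small GTPase, was lower at -1.76, and Dapl1, a gene of naive T cells, at -1.78. The CD4 counts rested on few cells, and the number of genes called higher was 54 without library 1, 57 without library 3 and 67 without library 4, and that called lower was 28 without library 2. Il21, a cytokine of follicular helper cells, was found in 4 CD4 early-gene cells (8.5%, against 0.2% of negative cells) and could not be tested.

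In CD8 cells, 130 of 1635 tested genes (7.95%) were higher and 13 (0.795%) lower, at a median of 0.15, and 74 and 29 with TMM scaling. Of the tested genes, 4 of 5 early genes, all 8 NF-kB genes and 3 of 7 feedback genes were higher, and 4 of 13 in the naive state list were lower. Of 11 dissociation stress genes 4 were higher, and 1 of 12 with TMM scaling. Egr1 had 187, 396, 655 and 594 CPM in CD8 early-gene cells and 11.4, 12.1, 17.8 and 12 CPM in CD8 negative cells, a log2 ratio of 5.07. Cd69 had 473, 555, 1922 and 1689 CPM against 106, 105, 143 and 129 CPM, a log2 ratio of 3.16. Libraries 3 and 4 were the higher ones for both genes in CD8 early-gene cells. These cells were also shallower there, at medians of 7182 and 8108 UMIs against 10757.5 and 9605 UMIs in libraries 1 and 2. The part of depth was not tested. Myc had 140, 226, 227 and 328 CPM against 28.1, 28, 32 and 31.1 CPM, a log2 ratio of 2.94. Among genes of MYC and ribosome biogenesis 10 of 18 were higher in CD8 cells, Myc, Ncl, Srm and Odc1 included, and 6 with TMM scaling. Cd5 had 187, 221, 269 and 149 CPM against 68.1, 68.2, 69.1 and 70.2 CPM, a log2 ratio of 1.58. Lower genes were S1pr1, with 147, 113, 75.5 and 62.5 CPM against 281, 289, 295 and 301 CPM and a log2 ratio of -1.50, and Klf2, with 327, 216, 311 and 274 CPM against 571, 608, 612 and 611 CPM and a log2 ratio of -1.12. Ccr7 was lower at -0.97 and Lef1 at -0.81. The number of genes called lower was 20 without library 2.

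The chemokine Xcl1, which draws cross-presenting dendritic cells, was the called gene with the largest ratio in CD8 cells and also the most uneven. It had 1334, 879, 0 and 500 CPM in CD8 early-gene cells and 13.1, 13.3, 13.9 and 12.2 CPM in CD8 negative cells, a log2 ratio of 5.81. All of it came from 14 of 66 CD8 cells, 1 of which gave 27% of the UMIs, and none was found in library 3. That library had too few counts to be tested for Xcl1, so the call rests on the other libraries. Of the early-gene cells with Xcl1, 12 had over 10000 UMIs and 2 had between 5000 and 10000. Ccl4, a chemokine of activated CD8 cells, was found in 9 CD8 early-gene cells and no CD4 early-gene cell, at 327, 200, 0 and 39.1 CPM, and could not be tested. Ifng was found in 4 CD8 early-gene cells. Xcl1 was thus carried by a minority of CD8 early-gene cells, most of them deep.

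CD4 and CD8 early-gene cells had calls in common. Over the 1079 genes tested in both lineages, 42 were higher in both, which is 40.4% of the 104 higher in CD4 cells and 79.2% of the 53 higher in CD8 cells. In both lineages 8 genes were lower, 47.1% of 17 and 88.9% of 9, and none was called in opposite directions. The lineages share no cell but come from the same 4 libraries.

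**Figure D3:**
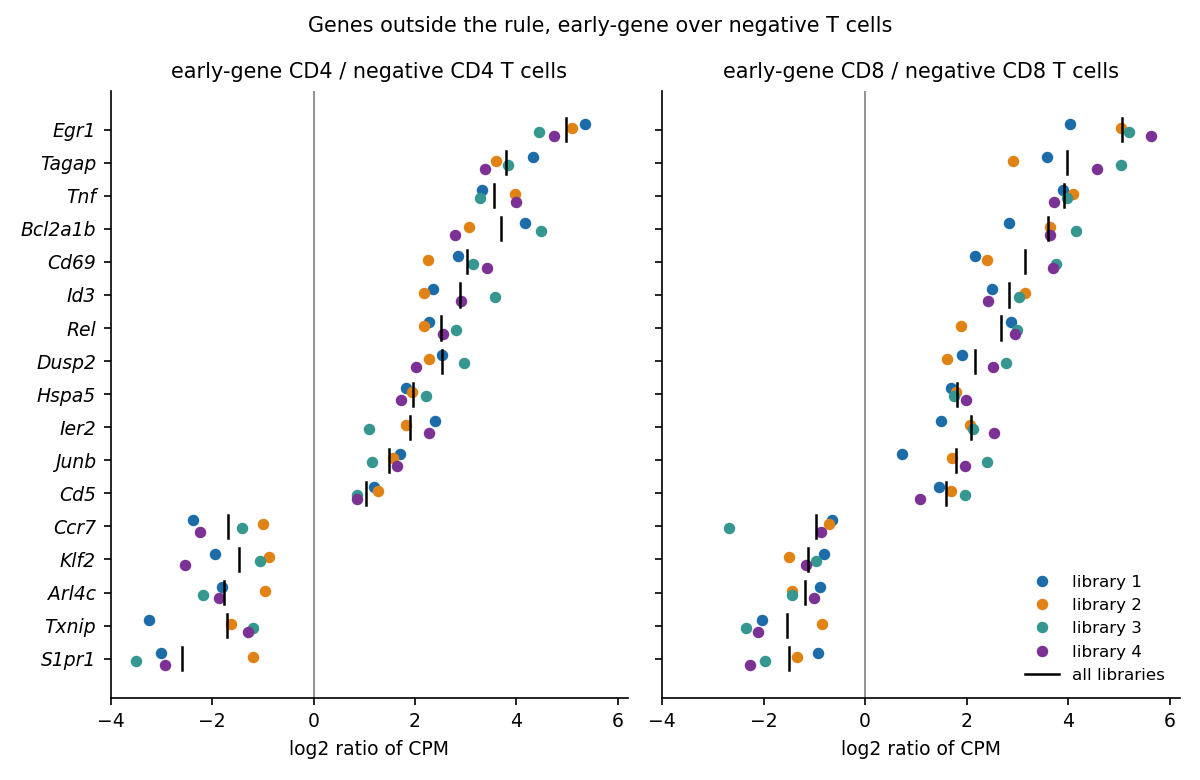
Log2 ratio of CPM, early-gene over negative T cells (x axis), for 17 genes in CD4 cells (left) and CD8 cells (right); dots are libraries and the black bar is all libraries together. Genes from Egr1 to Cd5 lie right of 0, and Ccr7, Klf2, Arl4c, Txnip and S1pr1 lie left of 0 in every library shown; S1pr1 is at -2.59 in CD4 and -1.50 in CD8 cells.

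CD4 early-gene cells were then set against CD8 early-gene cells to see where the lineages part. Of 1169 genes tested 32 (2.74%) were higher in CD4 early-gene cells and 16 (1.37%) lower, at a median of 0.10; with TMM scaling 17 were higher and 21 lower. No early gene of 4 tested, no NF-kB gene of 6 and no dissociation stress gene of 12 was called. Cd69 had a log2 ratio of -0.29 (-0.48 to -0.10) and Egr1 of 0.14 (-0.14 to 0.41) over all libraries. Neither was called, because the libraries went opposite ways. Egr1 was more than 1.5-fold higher in CD4 cells in libraries 1 and 2, and more than 1.5-fold lower in libraries 3 and 4. Cd69 passed 1.5-fold upward in library 1 and downward in library 3. The ratios over all libraries thus average opposite differences. Of 6 tested costimulatory genes 3 were higher in CD4 cells, Tnfrsf4, Cd40lg and Cd200. Cd40lg had 259, 127, 226 and 303 CPM in CD4 early-gene cells and 13.3, 30.8, 25.2 and 93.8 CPM in CD8 early-gene cells, a log2 ratio of 2.66, and was found in 61.7% and 15.2% of cells. It was also found in 33.2% of CD4 and 1.9% of CD8 negative cells, so the lineages stood apart in Cd40lg among negative cells as well. Tnfrsf4 had CD8 values of 66.7, 5.14, 50.4 and 7.82 CPM and a log2 ratio of 2.90, and Cd200 had CD8 values of 187, 30.8, 16.8 and 7.82 CPM and a log2 ratio of 1.63. Tbc1d4, a Rab GTPase-activating protein of glucose transport, had 225, 382, 318 and 36.3 CPM in CD4 cells and 40, 20.6, 25.2 and 0 CPM in CD8 cells, a log2 ratio of 3.35. Izumo1r, the folate receptor 4 that marks CD4 cells with strong self-recognition, had 251, 557, 92.1 and 60.5 CPM against 73.4, 82.2, 8.39 and 23.5 CPM, a log2 ratio of 2.27. Both genes were lowest in library 4 among CD4 cells. Ikzf2, on the list of regulatory T cell genes, had a UMI in 2, 3, 2 and 0 CD4 early-gene cells of libraries 1 to 4. Without cells with an Ikzf2 UMI, 9 of the 32 genes higher in CD4 early-gene cells could still be tested and 5 stayed higher. Negative CD4 and CD8 cells stood apart in the other named genes too. Tnfrsf4 was found in 5.97% and 1.85% of them and Cd200 in 7.98% and 3.06%. Tbc1d4 was found in 14.2% and 4.19%, and Izumo1r in 25.8% and 10.3%.

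Genes of the CD8 lineage were lower in CD4 early-gene cells, 4 of 6 tested on the CD8 memory and cytotoxic list. Nkg7, a cytotoxic granule gene, had 8.65, 15.9, 25.1 and 12.1 CPM in CD4 early-gene cells and 580, 334, 420 and 485 CPM in CD8 early-gene cells, a log2 ratio of -4.89. Ly6c2 was at 0, 0, 0 and 12.1 CPM against 594, 529, 151 and 391 CPM. Dapl1 had 95.1, 127, 67 and 169 CPM against 467, 884, 285 and 547 CPM, a log2 ratio of -2.20. Cd160 was lower at -2.78, and Xcl1 had no UMI in CD4 early-gene cells against 435 UMIs in CD8 early-gene cells. Against CD8 negative cells, by contrast, Nkg7 (log2 ratio -0.28) and Ly6c2 (-0.14) were not called in CD8 early-gene cells. The number of genes called higher in CD4 than in CD8 early-gene cells was 15 without library 1 and 17 without library 4, and that called lower was 10 without library 4.

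**Figure D4:**
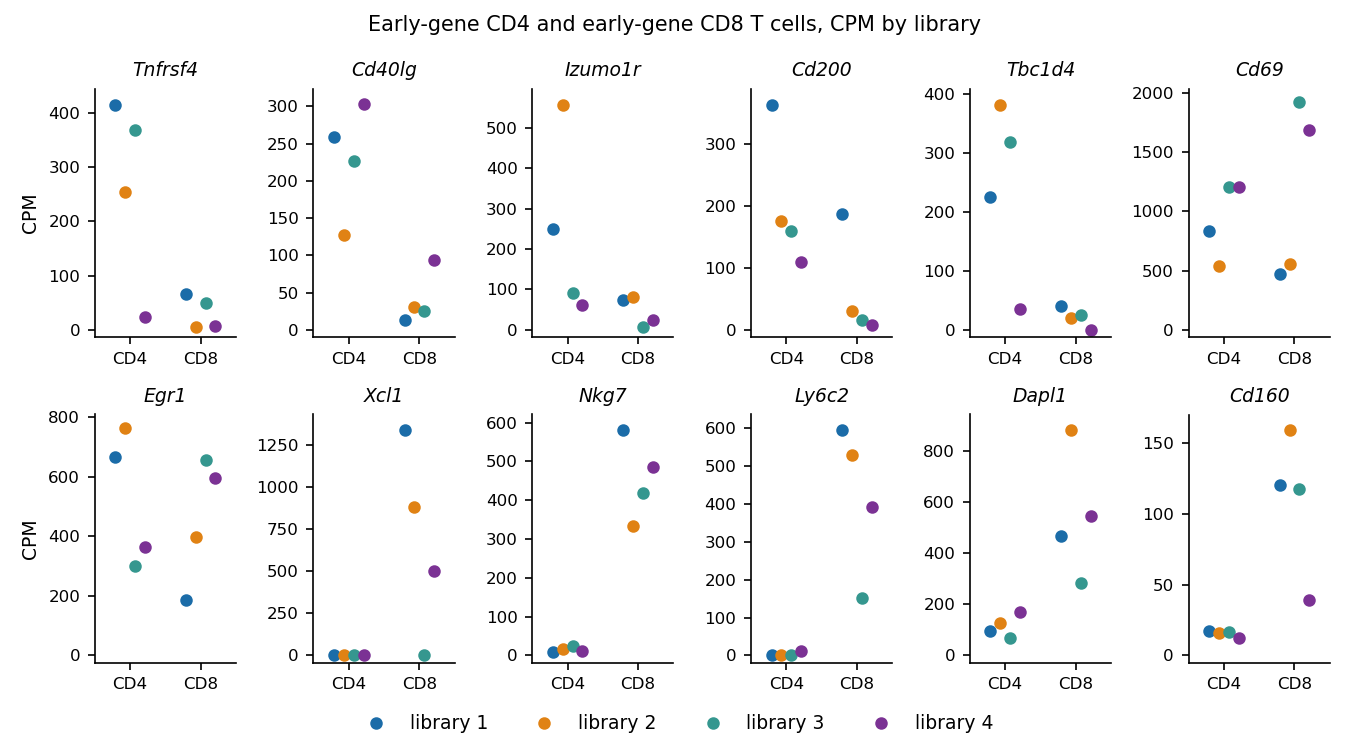
CPM (y axis, linear, a scale of its own for each gene) of 12 genes in CD4 (left) and CD8 (right) early-gene T cells, 1 dot per library. Cd40lg, Tnfrsf4, Cd200, Tbc1d4 and Izumo1r are mostly higher in CD4 cells, Cd69 and Egr1 overlap between the lineages, and Nkg7, Ly6c2, Dapl1 and Cd160 are higher in CD8 cells, as is Xcl1 in 3 of 4 libraries.

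The threshold of 3 genes cut through a gradation. T cells with 0, 1, 2, 3, 4 and 5 of the 5 genes numbered 8948, 1553, 282, 98, 51 and 11, with median depths of 6276.5, 6939, 7040.5, 6185.5, 7307 and 6827 UMIs. In that order Cd69 had 119, 172, 462, 1001, 1053 and 1544 CPM, and Egr1 14.5, 48.6, 221, 391, 661 and 778 CPM. Klf2 had 576, 482, 357, 305, 178 and 141 CPM and S1pr1 315, 262, 178, 92.6, 86.8 and 47.1 CPM. Cells just outside the threshold, with 2 genes, thus lay between the negative cells and those just inside it, with 3 genes, for all 4 genes. Dusp2 had 139, 193, 388, 647, 788 and 1002 CPM and Txnip 232, 218, 151, 94.0, 51.6 and 23.6 CPM. Id3 departed from an even rise, with 78.2, 164, 353, 590, 413 and 931 CPM. Among cells of 5000 to 10000 UMIs only, Cd69 had 120 CPM with none of the genes, 1237 CPM with 3 and 2214 CPM with all 5, so the gradation was also seen at a narrower range of depth. The number of genes detected is itself linked to depth and to the level of the 5 genes, and the gradation is a description of the choice and of genes that go with it.

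**Figure D5:**
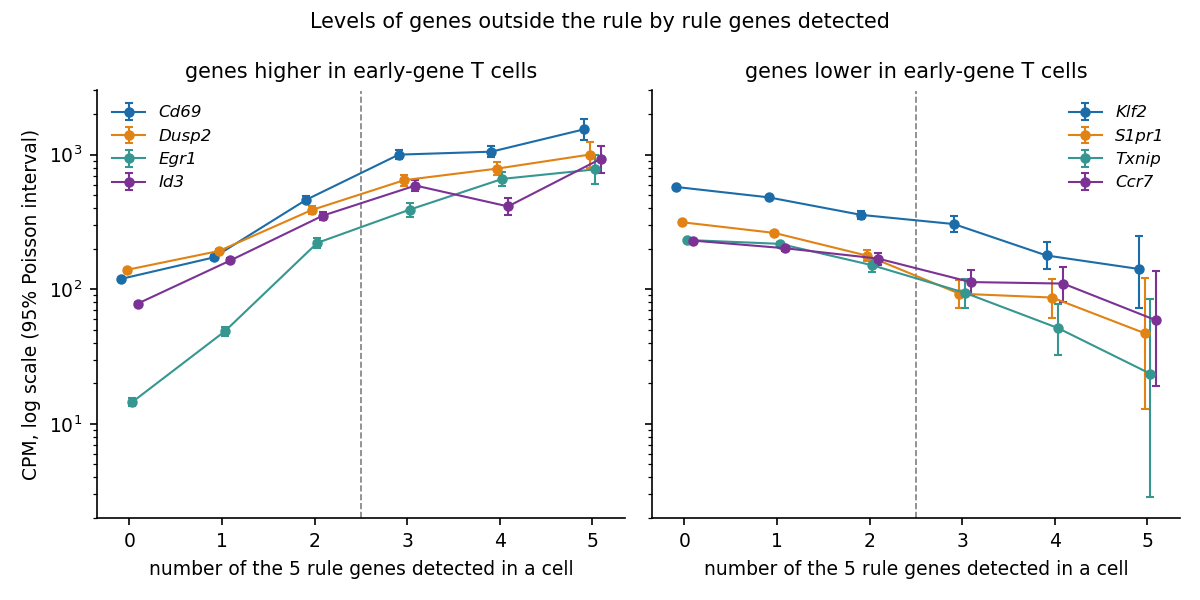
CPM on a log scale (y axis) of 8 genes in T cells with 0 to 5 of the chosen genes detected (x axis); bars are 95% Poisson intervals and the dashed line marks the threshold of 3. Cd69, Egr1, Dusp2 and Id3 (left) climb toward 5 genes, Cd69 from 119 to 1544 CPM, and Klf2, S1pr1, Txnip and Ccr7 (right) decline, S1pr1 from 315 to 47.1 CPM.

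Early-gene cells varied among themselves with depth. Below 5000 UMIs there were 37 cells with 12.3% of the UMIs of the class, between 5000 and 10000 UMIs 88 cells with 48.8%, and above 10000 UMIs 35 cells with 38.9%. Cd69 had 1399, 1308 and 630 CPM in these classes from shallow to deep, and S1pr1 150, 83.8 and 72.3 CPM. Xcl1 had 0, 166 and 690 CPM and Ccl4 0, 11.5 and 178 CPM. The deepest early-gene cells thus had the lowest Cd69 and the highest Ncl, Xcl1 and Ccl4 levels. Depth went with lineage and library, as CD8 early-gene cells of libraries 1 and 2 had medians of 10757.5 and 9605 UMIs. Those cells held 200 and 171 UMIs of Xcl1, against 0 and 64 in libraries 3 and 4. Depth, lineage and library were not separated here. A few genes rested on single cells: in CD4 early-gene cells 74% of Ikzf2 UMIs came from 1 cell, which gave library 2 a level of 986 CPM, and 98% of Ccl5 UMIs came from 1 cell of library 3. With the cells chosen at full depth and then thinned to 2000 UMIs each, the differences between classes in the share of cells were still wide. Cd69 was then found in 66.0% of CD4 and 77.3% of CD8 early-gene cells, against 17.9% of CD4 negative, 18.7% of CD8 negative and 22.8% of B cells. S1pr1 was found in 14.9% of CD4 and 22.7% of CD8 early-gene cells, against 52.1% and 42.9% of negative cells. Klf2 was found in 25.5% and 40.9%, against 61.9% and 64.9%.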

How the data were processed

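The deposited matrix holds raw counts of UMIs for 31053 genes in 30824 barcodes of 4 libraries, made by the authors with Cell Ranger 5.0.0 per the file headers, on mm10 per the submitters' processing notes; cells were not annotated in it. Summed counts per class and library were scaled to CPM. Ratios over all libraries weight the reference cells to the libraries of the other class. The members and gene lists were chosen with earlier results of these data known. The genes named in a comparison were the called ones with the widest ratios, at most 4 from a list and 30 from all lists, with at most 8 each way from outside the lists, and 20 fixed genes. Batf, Ccl4, Ccl5, Cd3d, Cd3g, Gadd45b, Hspa1b, Icam1, Il21, Il7r, Isg15, Jun, Lag3, Ncl, Nfatc1, Nfkb1, Pdcd1, Tcf7 and Trac were named after their values were seen. The comparison over all subsets was added after cell numbers were seen. Doublets were called with Scrublet through scanpy 1.11.5 at 0.8% per 1000 cells and kept. TMM factors came from edgeR 4.0.16. Intervals are exact 95% limits, binomial (Clopper-Pearson) for a share of cells and for a ratio, where the counts of both classes are split. A count of 0 allows up to 3 counts. The counts are of UMIs, and free RNA was not removed here. Before use, the calls within CD4, within CD8 and between them were run on simulated counts with 3-fold changes in well-expressed genes. That simulation held no unevenness between cells and left out the comparison over all subsets. Promoters were RefSeq's. Some genes are not reported here. Alternatives changed the number of rule genes, depth, filters, doublets, fold, count minimum, scaling and libraries.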

Additional observations from a re-analysis of the deposited data

Results flagged for a closer look

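In 9 of 158 gene ratios examined (5.70%) 1 library stood far from the other 3, by the gap of that library relative to the range of the 4. For independent normal values this occurs in about 1 in 20 groups of 4. The ratios examined were of called genes and of comparisons that share cells, so that rate need not hold here. Whether 9 differs from chance was not tested. Over all early-gene T cells against negative T cells, the log2 ratio stood apart at 5.43 for Egr1 in library 4, at 1.71 for Dusp6 in library 1, at 3.20 for Plk3 in library 2 and at 3.08 for Rilpl2 in library 4. In CD4 cells it stood apart at 2.61 for Nfkbia in library 3, at 2.61 for Rilpl2 in library 4 and at -1.92 for Itgb1 in library 4, where the other libraries gave the opposite sign. In CD8 cells it stood apart at 1.89 for Rel in library 2 and at -2.69 for Ccr7 in library 3.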

How the results depend on the processing

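Counts of called genes moved with most settings, and directions of the called genes among those named seldom did. Which genes were called moved as well. With 2 or more rule genes, 136 of the 247 genes higher in all early-gene cells stayed higher. So did 44 of 120 in CD4 cells and 66 of 130 in CD8 cells, though all of them were still tested. Of the gene ratios recomputed, 3 were of called genes and changed sign. Of the rest, 2109 stayed within their counting interval and 486 moved beyond it, and changes of sign in genes not called were not counted. The 3 were Cd74 in CD4 against CD8 early-gene cells at -0.16 with 4 or more rule genes, Skil there at -1.41 with thinned cells and Tnfsf8 in CD8 cells at -0.22 among cells of 5000 to 10000 UMIs. The cause was not tested. Counts are given as higher and lower, for all, CD4, CD8 and CD4 against CD8 early-gene cells in turn. They were 116 and 18, 30 and 12, 46 and 6, and 9 and 6 with 4 or more rule genes, and 265 and 34, 192 and 24, 181 and 12, and 72 and 38 with 2 or more. Among cells of 5000 to 10000 UMIs they were 129 and 16, 37 and 2, 58 and 10, and 12 and 6. After thinning they were 77 and 7, 17 and 0, 18 and 1, and 1 and 3, with fewer counts to test. The thinned early-gene cells here were still the 160 chosen at full depth. At 2-fold they were 95 and 9, 40 and 5, 54 and 0, and 6 and 13. A minimum of 20 counts gave 153 and 16, 44 and 9, 54 and 6, and 7 and 9, and a minimum of 5 gave 320 and 55, 243 and 32, 237 and 18, and 74 and 34. TMM scaling gave 146 and 84, 42 and 93, 74 and 29, and 17 and 21. The stricter cell filter (500 genes, 5% mitochondrial UMIs) gave 81 and 6 in CD8 cells, and leaving out cells with Ikzf2 gave 17 higher in CD4 against CD8 cells. Without doublets every count stayed within 1.5 times. Leaving out each library gave 205 to 255 higher and 34 to 47 lower in all early-gene cells, 54 to 129 and 14 to 28 in CD4 cells, 92 to 116 and 17 to 20 in CD8 cells, and 15 to 24 and 10 to 18 between them. The share of early-gene cells was 0.567% with 4 or more rule genes, 4.04% with 2 or more and 1.21% among cells of 5000 to 10000 UMIs. It was 0.331% when the rule was applied anew to thinned cells, and 1.41% to 1.53% without a library. Over all alternatives Cd69 ranged from 2.50 to 3.44 and S1pr1 from -2.16 to -1.14 in log2 ratio over all early-gene cells. With 8 to 21 cells of a lineage per library, only genes of middling or high level could be tested. The ratios were taken within each library. No paired analysis was possible because the labels' replicate numbers belong to mice, to which the libraries are not tied.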
